A study of Mus musculus with 6 samples.

Results

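Matrix metalloproteinases and the tissue inhibitors that block them were examined in C2C12 myotubes after knockdown of *Dj1*. The members were 6 metalloproteinases (MMP2, MMP3, MMP9, MMP10, MMP13 and MMP14) and 4 inhibitors (TIMP1, TIMP2, TIMP3 and TIMP4), taken as every row of the deposited array report that carries one of these gene names. All 10 genes were present, among 30854 gene names on the array, and they held 18 of its 45281 rows, each row being 1 probe.

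C2C12 cells are myoblasts of mouse origin that stop dividing and fuse to multinucleated fibres, the myotubes, in medium with little serum. Cells of the control group received 60 nM scramble siRNA and cells of the knockdown group 60 nM DJ-1 siRNA, by the same lipid reagent. After 48 h both groups were moved to differentiation medium with horse serum for 96 h, and total RNA of the myotubes was hybridised to Illumina mouse arrays. There were 3 arrays per group (6 in all), and the labels number them without stating whether they came from separate transfections, so p-values measure the spread between these arrays, which may be technical.

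Metalloproteinases are zinc-dependent enzymes, secreted or held at the cell surface, that cut collagens, laminin, fibronectin and other proteins of the extracellular matrix. They are made as inactive precursors, switched on by removal of a propeptide, and held in check by tissue inhibitors that sit in the active site. In skeletal muscle they are known for remodelling the basement membrane during regeneration, when satellite cells migrate and myoblasts fuse.

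Signal is given as normalised log2 signal after background correction, and a probe was called where its adjusted p from limma was under 0.05. A probe was tested where 3 or more of the 6 arrays gave it a detection p under 0.05. Of the 18 member probes, 9 probes of 7 genes were tested, and MMP10, MMP13 and TIMP4 had no tested probe. The siRNA target itself, listed as PARK7, had a normalised log2 signal of 13.59, 13.37 and 13.63 in the scramble group and 12.48, 12.49 and 12.15 in the knockdown group. No knockdown array reached the lowest scramble array, and PARK7 had a log2 fold change of -1.16 (standard error 0.14, limma adjusted p = 0.00344).

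After *Dj1* knockdown, 2 of the 9 tested member probes fell, one each for the metalloproteinases MMP14 and MMP3. This is 22.2% of the tested member probes, against 30.1% of all 17890 tested probes, so in this fit the share was not above the background. When the prior variance was allowed to follow the signal, 5 of the 9 were called, a larger share than the 6470 of all 17890 tested probes. No member probe rose by limma (0 of 9, also 0 at an unadjusted p under 0.05), against 16.5% of all tested probes. Those that fell compare with 13.6% of all tested probes, and at an unadjusted p under 0.05 there were 3. For 6 of the 9 probes the groups did not overlap, against 48.5% of all tested probes. Of the 9 log2 fold changes 7 were negative, and their median was -0.19, against 0.05 over all tested probes. When background-corrected arrays were shifted to a common 75th percentile, the median was -0.05, against 0.07 over all tested probes. Bulk RNA cannot tell fewer cells of a type from less RNA per cell.

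**Figure D1:**
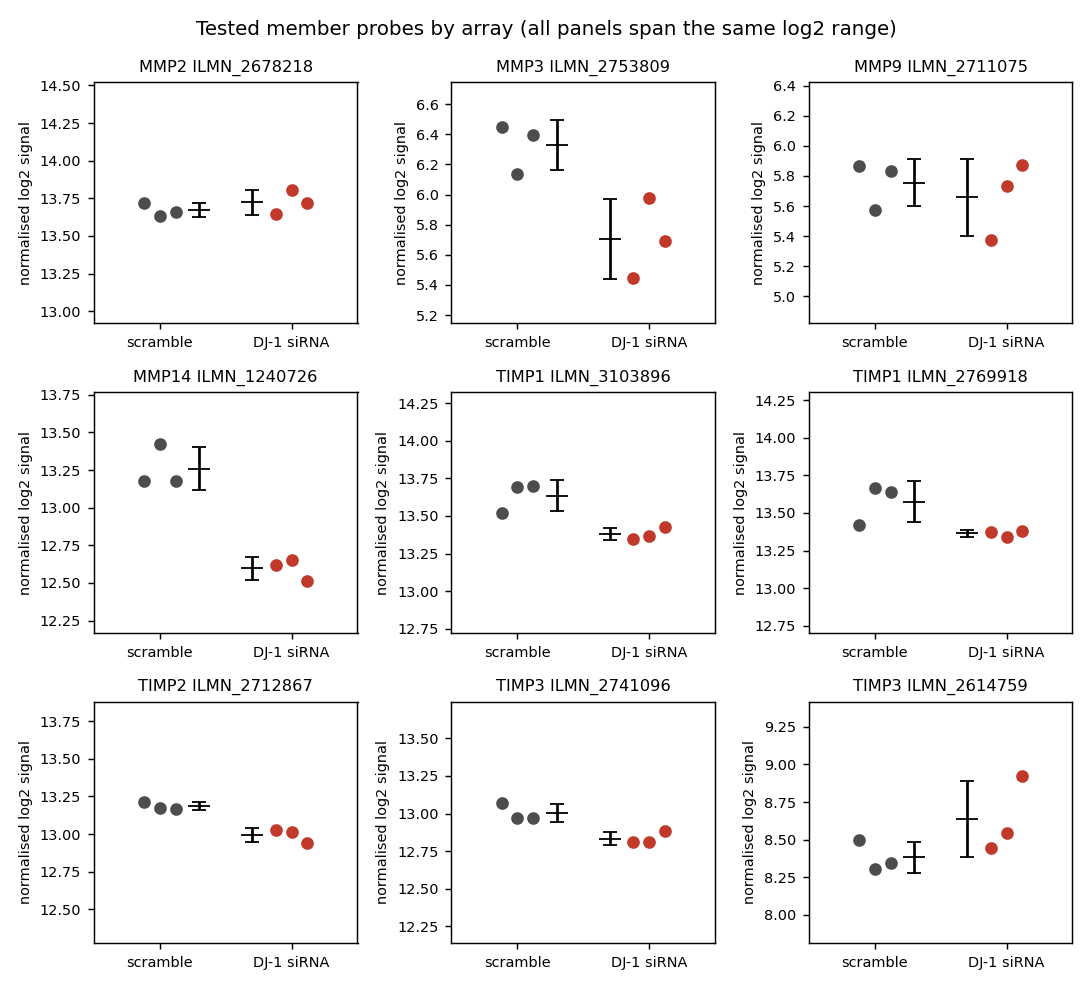
Normalised log2 signal of the 9 tested member probes on the 3 scramble arrays (grey) and the 3 DJ-1 siRNA arrays (red), with the group mean and SD as bars. MMP14 shows the widest gap, from 13.26 to 12.60 in the group means, and MMP2 overlaps between the groups.

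MMP14, a membrane-anchored metalloproteinase that cuts collagen and activates the precursor of MMP2, was bright on every array. Its probe ILMN_1240726 had a normalised log2 signal of 13.18, 13.42 and 13.18 in the scramble group and 12.62, 12.65 and 12.51 in the knockdown group. The scramble arrays were all high, the second highest of all, and the knockdown arrays were all low and close together. In log2 terms MMP14 fell by 0.66 (standard error 0.11, 95% interval -0.93 to -0.40, limma adjusted p = 0.00797), leaving 63.2% of the scramble signal. Before any normalisation the deposited signal was 9298, 11203 and 9155 in the scramble group and 6516, 7347 and 5432 in the knockdown group, again with no overlap. The standard error over beads of these signals was between 2.97% and 5.17% of the signal on each array, which describes the beads of an array and not the spread between arrays. The call was kept in all 14 alternative analyses, with log2 fold changes from -0.71 to -0.53. The other MMP14 probe, ILMN_1225091, was detected on no array (signal 136.7 to 165.9), and it neither bears out nor opposes the change.

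MMP2, gelatinase A, which degrades basement membrane collagen and denatured collagen, was also bright. Its normalised log2 signal was 13.72, 13.64 and 13.66 in the scramble group and 13.64, 13.81 and 13.72 in the knockdown group. The groups overlapped, with the highest array in the knockdown group and the lowest in the scramble group. The log2 fold change was 0.05 (standard error 0.10, 95% interval -0.18 to 0.28, limma adjusted p = 0.719). Over the alternatives it ranged from 0.01 to 0.21 and was never called.

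MMP3, stromelysin 1, which cuts proteoglycans, laminin and fibronectin and can activate other metalloproteinase precursors, was dim. On ILMN_2753809, which was detected on all 6 arrays with detection p from 0.00214 to 0.0385, the normalised log2 signal was 6.45, 6.14 and 6.40 in the scramble group and 5.44, 5.98 and 5.69 in the knockdown group. The groups did not overlap, but the gap between the lowest scramble and the highest knockdown array was small. MMP3 fell by 0.62 (standard error 0.16, 95% interval -1.01 to -0.23, limma adjusted p = 0.0314), leaving 65.0% of the scramble signal. The deposited signal was 226.8, 213.5 and 209 in the scramble group and 174.2, 204.3 and 170.8 in the knockdown group, near the signal of undetected probes. The log2 fold change was negative under all 13 alternatives that tested the probe, but the call was kept in only 4 of these. Without background correction it was -0.21 (adjusted p = 0.0723), or -0.19 with the 75th percentile shift (adjusted p = 0.106), and adjusted p over the alternatives ran from 0.0242 to 0.106. The call was also lost with no filter on dim probes (adjusted p = 0.0687), a prior variance trend (adjusted p = 0.0584) or the replicate block (adjusted p = 0.0730). Leaving out 1 array ended the call for scramble array 1 (-0.58), scramble array 3 (-0.59), DJ-1 siRNA array 1 (-0.48) and DJ-1 siRNA array 3 (-0.61). The other MMP3 probes were not tested. ILMN_2704576 was detected on 1 knockdown array and ILMN_2899041 on none, so neither gives a second measurement of the fall.

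MMP9, gelatinase B, the enzyme released by leukocytes and activated satellite cells, was close to background. Its normalised log2 signal was 5.86, 5.58 and 5.83 in the scramble group and 5.37, 5.73 and 5.87 in the knockdown group. The highest and the lowest array both belonged to the knockdown group, and the groups overlapped. The log2 fold change was -0.10 (standard error 0.16, 95% interval -0.48 to 0.28, limma adjusted p = 0.675), and it turned to 0.043 without DJ-1 siRNA array 1.

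MMP10, stromelysin 2, had 1 probe, which was detected on no array, with a signal of 136.8 to 158.6 and detection p from 0.114 to 0.781. MMP13, collagenase 3, had 3 probes and was detected on no scramble array. ILMN_2799267 passed detection on 2 knockdown arrays and ILMN_2737685 on 1, while ILMN_1249336 passed on none. Before normalisation the scramble arrays gave 125.5, 185.6 and 146.4 on ILMN_2737685 and the knockdown arrays 152.9, 161.4 and 184.4, which overlap. After normalisation DJ-1 siRNA array 3 was highest on it (6.07) and on ILMN_2799267 (5.61). The MMP13 probes were not tested, and no fold is given because the knockdown mean did not exceed the lowest detectable signal.

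**Figure D2:**
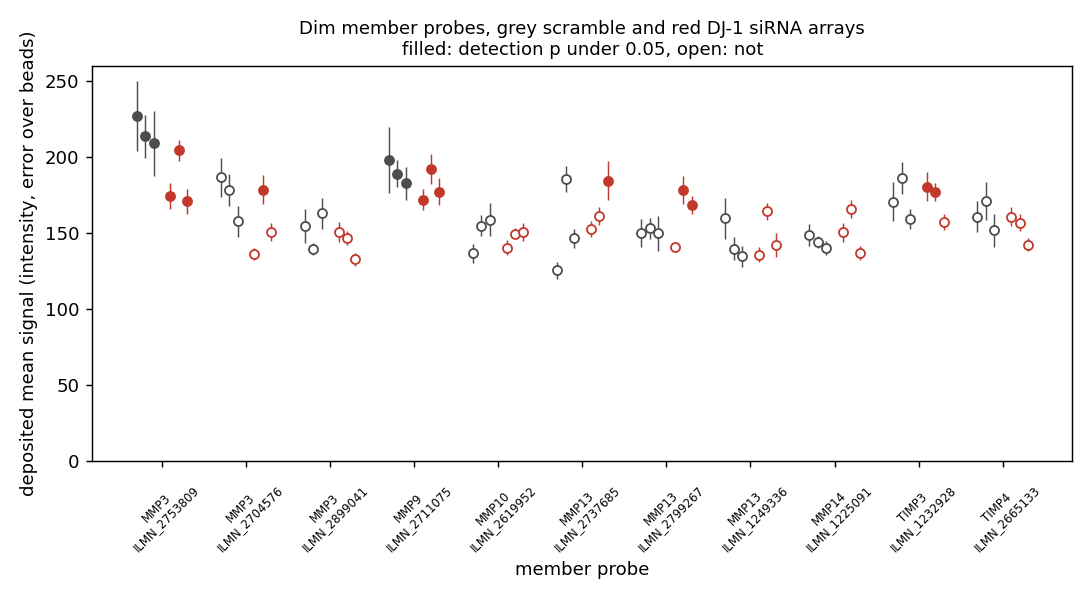
Deposited mean signal of the 11 dimmest member probes on the scramble arrays (grey) and DJ-1 siRNA arrays (red), with the standard error over beads as bars; filled points passed detection. Only MMP3 ILMN_2753809 and MMP9 are filled on all 6 arrays, and no probe in the plot exceeds 226.8.

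MMP3, MMP10 and MMP13 belong to a run of 10 neighbouring metalloproteinase genes in the RefSeq annotation of GRCm38.p6, together with MMP12, MMP1B, MMP1A, MMP8, MMP27, MMP20 and MMP7. The array held 16 probes for this run, of which 10 were detected nowhere and 2 were tested. The tested probes were that of MMP3 and ILMN_3156019 of MMP1A, an interstitial collagenase, which was chosen after its values were seen. MMP1A had a log2 fold change of 0.27 (standard error 0.16, limma adjusted p = 0.255), with 0.12 to 0.43 over the alternatives. Low signal was thus common among the genes of the run.

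The upstream sequences of MMP3 and MMP14 are shown because these members fell, with those of MMP10 and MMP13 as the neighbours of MMP3 in the list. RefSeq promoters were matched for 8 of the 10 members, MMP2 and MMP9 not being among them. Each run below holds the 100 bases before the annotated gene start in GRCm38.p6, on the + strand. Capitals mark matches to TGANTCA, the binding motif of AP-1 (the FOS and JUN family), in the first 3 and to GGGCGG, the GC box bound by SP1 family factors, in the last.
MMP3, chr9:7445722-7445821: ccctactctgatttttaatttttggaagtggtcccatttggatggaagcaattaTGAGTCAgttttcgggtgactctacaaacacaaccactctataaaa
MMP10, chr9:7502242-7502341: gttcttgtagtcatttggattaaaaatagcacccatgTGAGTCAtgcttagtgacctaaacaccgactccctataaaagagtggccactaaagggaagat
MMP13, chr9:7272414-7272513: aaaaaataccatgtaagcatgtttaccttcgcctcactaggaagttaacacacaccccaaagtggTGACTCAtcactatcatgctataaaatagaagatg
MMP14, chr14:54431498-54431597: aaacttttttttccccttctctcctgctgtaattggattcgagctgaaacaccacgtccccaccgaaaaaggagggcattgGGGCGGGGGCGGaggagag

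Both motifs were searched on both strands. The AP-1 motif began 46 bases before the start of MMP3, 63 before that of MMP10 and 35 before that of MMP13. It was found in the 100 bases upstream of 2.73% of all 32851 promoters, and in none of the 250 bases upstream of MMP14, TIMP1, TIMP2, TIMP3 or TIMP4. GGGCGG occurred in 2 adjoining copies in MMP14 and was present in 24.7% of all promoters over 100 bases. Over 250 bases TIMP1, TIMP2 and TIMP3 each held 1 GC box and TIMP4 none, against 32.7% of all promoters. A match describes the letters of the window and not the binding of a factor.

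Among the inhibitors, none of the 5 tested probes was called by limma (1 at an unadjusted p under 0.05), against 30.1% of all tested probes. After normalisation 4 of them had no overlap between the groups, against 48.5% of all tested probes. Before normalisation the deposited signals of all 4 overlapped, as for TIMP2, with 9110 on scramble array 3 and 9392 on DJ-1 siRNA array 2. TIMP1, which inhibits most secreted metalloproteinases, was measured by a pair of bright probes. On ILMN_3103896 the normalised log2 signal was 13.52, 13.69 and 13.70 in the scramble group and 13.35, 13.37 and 13.43 in the knockdown group. All knockdown values lay below all scramble values, by a gap smaller than the spread of the scramble arrays. The log2 fold change was -0.25 (standard error 0.10, 95% interval -0.49 to -0.02, limma adjusted p = 0.0957). On ILMN_2769918 the values were 13.42, 13.66 and 13.64 against 13.37, 13.34 and 13.38. The second probe thus gave the same order of groups, at a log2 fold change of -0.21 (standard error 0.11, limma adjusted p = 0.176).

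TIMP2, which inhibits metalloproteinases and also joins MMP14 in capturing the MMP2 precursor at the cell surface, had 1 probe. Its normalised log2 signal was 13.22, 13.17 and 13.17 in the scramble group and 13.02, 13.02 and 12.94 in the knockdown group. The arrays of each group lay close together and the groups did not overlap. The log2 fold change was -0.19 (standard error 0.09, 95% interval -0.40 to 0.02, limma adjusted p = 0.149).

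TIMP3, which binds to the matrix and also inhibits ADAM family enzymes, gave probes of opposite sign. On ILMN_2741096, the bright one, the values were 13.07, 12.97 and 12.97 in the scramble group and 12.81, 12.81 and 12.88 in the knockdown group. On ILMN_2614759 they were 8.50, 8.31 and 8.34 against 8.44, 8.55 and 8.92. The first did not overlap between the groups and was lower after knockdown, at a log2 fold change of -0.17 (standard error 0.09, limma adjusted p = 0.201). The second overlapped, through scramble array 1, and its log2 fold change was 0.26 (standard error 0.15, limma adjusted p = 0.234), or 0.11 without DJ-1 siRNA array 3. The third probe, ILMN_1232928, was detected on 2 knockdown arrays and was not tested. TIMP4, the inhibitor best known from heart and brain, was detected on no array, with a signal of 142.3 to 171.

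The small negative values of the inhibitors depended on how arrays were scaled. When each array was shifted to a common 75th percentile after background correction, the log2 fold changes were -0.09 and -0.04 for the TIMP1 probes, -0.05 for TIMP2 and -0.01 for TIMP3 ILMN_2741096, with no sign turned. When the prior variance was allowed to follow the signal, these 4 probes were called, at adjusted p of 0.00746, 0.0307, 0.0231 and 0.0475. In that fit 6470 of all 17890 tested probes were called, against 5387 in the reported fit. TIMP1 ILMN_3103896 was also called without background correction under quantile normalisation, at -0.25 (adjusted p = 0.0363). Probes of like brightness (1036 tested probes with a mean log2 signal of 12 to 14, a range chosen after the data were seen) had a median log2 fold change of 0.0059, and 49.7% of them were negative.

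**Figure D3:**
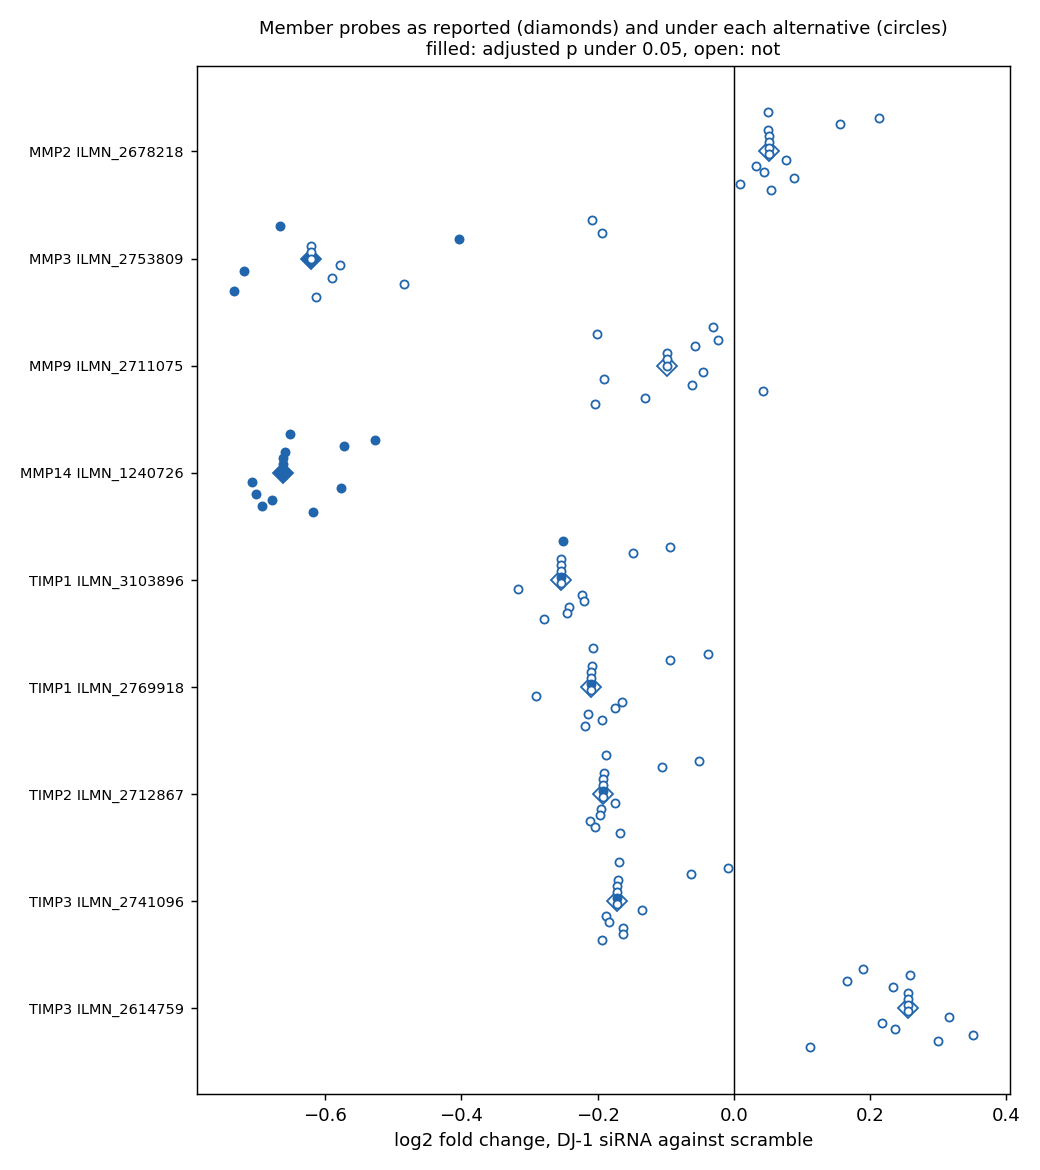
Log2 fold change of each tested member probe as reported (diamonds) and under the alternative analyses (circles), filled where adjusted p was under 0.05. MMP14 is filled throughout and stays between -0.71 and -0.53, while MMP3 is filled in 4 of 13 alternatives.

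To compare how far members changed, the log2 difference between 2 probes was taken within each array for 4 pairs, chosen after the data were seen. MMP14 minus MMP2 changed by -0.71 (standard error 0.12) from the scramble to the knockdown arrays, and no array of one group overlapped the other. MMP14 minus TIMP2 changed by -0.47 (standard error 0.09) and MMP14 minus TIMP1 ILMN_3103896 by -0.41 (standard error 0.10). MMP2 minus TIMP2 changed by 0.24 (standard error 0.06). Each of the 4 had p = 0.1 in a two-sided exact permutation test, the smallest that 3 against 3 arrays can give, and 0.1 after Benjamini-Hochberg adjustment over the 4 pairs. As the pairs were picked with the changes of their members known, the separation adds no evidence to any call.

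Of the other 17 metalloproteinase genes, 8 of 27 probes were tested, 2 rose and 2 fell (50% called, against 30.1% of all tested probes), and their median log2 fold change was 0.09, against 0.05 over all tested probes. The 2 rises, of MMP17 and MMP28 ILMN_1233866, were of probes that would not have passed the detection filter on the scramble arrays alone. MMP23, a membrane-bound enzyme with an unusual cysteine-rich tail, had a normalised log2 signal of 8.55, 8.28 and 8.12 in the scramble group and 6.89, 6.97 and 6.78 in the knockdown group. Its groups were apart, at a log2 fold change of -1.44 (standard error 0.13, limma adjusted p = 0.00279), or -0.85 without background correction. MMP15, a membrane-type relative of MMP14, fell by 0.90 (standard error 0.12, limma adjusted p = 0.00429), from 10.29, 10.16 and 10.35 to 9.26, 9.56 and 9.29. MMP17, which is held at the membrane by a lipid anchor, rose by 1.01 (standard error 0.23, limma adjusted p = 0.0185) but was detected on only 2 scramble arrays, and 0.35 was its smallest value over the alternatives. MMP17 lost its call without any 1 of the DJ-1 siRNA arrays, at 1.04, 0.94 and 1.02. MMP28, epilysin, rose on ILMN_1233866 by 1.10 (standard error 0.13, limma adjusted p = 0.00344), with detection on 1 scramble array and a smallest value of 0.36. Its other tested probe, ILMN_3159029, named after its values were seen, was detected on all arrays and had a log2 fold change of -0.11 (limma adjusted p = 0.670). The tested MMP28 probes thus disagree, and ILMN_1260453 was detected on no array.

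**Figure D4:**
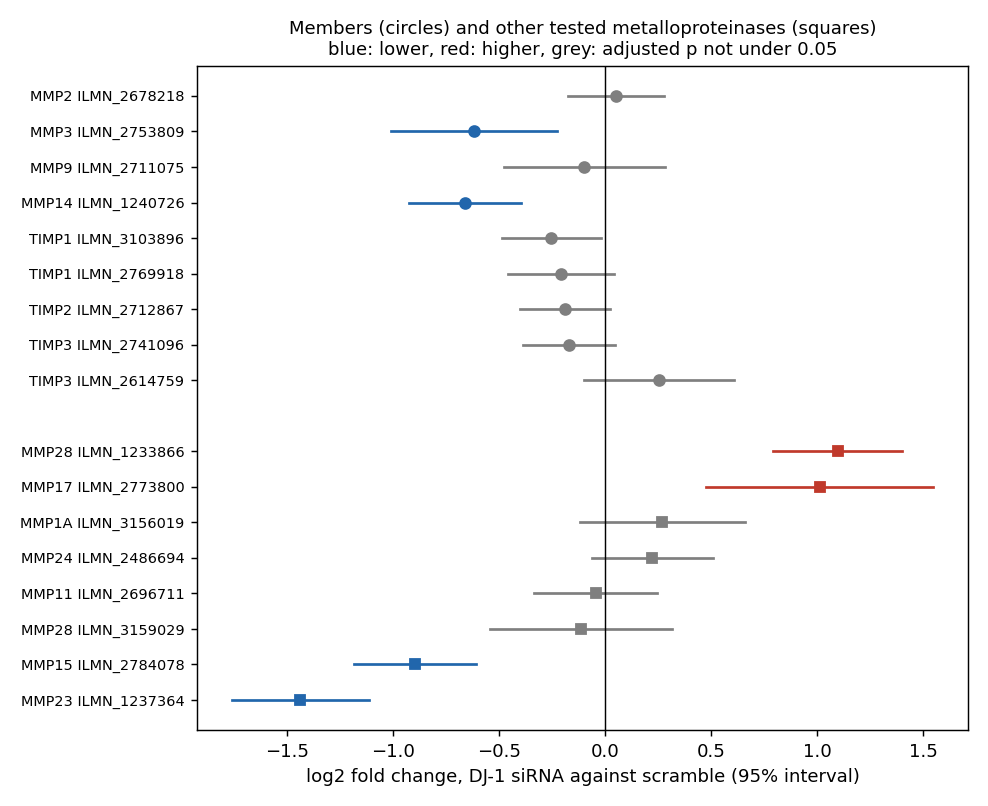
Log2 fold change with its 95% interval for the tested member probes (circles) and the tested probes of the other metalloproteinases (squares), blue where lower and red where higher at an adjusted p under 0.05. MMP23 lies lowest at -1.44 and MMP28 ILMN_1233866 highest at 1.10, and the inhibitors lie near 0.

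Activators, docking proteins and further inhibitors had 17 tested probes, of which 4 rose and 2 fell (median -0.01, 35.3% called against 30.1% of all tested probes). BSG, basigin, a surface glycoprotein known to induce metalloproteinases in neighbouring cells, was higher on both of its dim probes, where it rose by 1.69 (standard error 0.23, limma adjusted p = 0.00459) and 1.53 (standard error 0.25, limma adjusted p = 0.00691), each detected on 2 scramble arrays. Without background correction these values were as low as 0.71 and 0.61. Neither BSG probe would have passed the detection filter on the scramble arrays alone. RECK, a membrane-anchored inhibitor of MMP2, MMP9 and MMP14, had a normalised log2 signal of 6.76, 6.36 and 6.70 in the scramble group and 7.22, 7.52 and 7.17 in the knockdown group. The groups did not overlap, and RECK rose by 0.70 (standard error 0.15, limma adjusted p = 0.0182), with 0.33 as its smallest value over the alternatives. It lost its call with the replicate block (adjusted p = 0.0523) and without DJ-1 siRNA array 1, at 0.74 (adjusted p = 0.0524, with a range of 0.00771 to 0.0524 over the alternatives). A second RECK probe, ILMN_2812614, named after its values were seen, rose by 0.40 (limma adjusted p = 0.0252) but was 0.18 without background correction and kept its call in 5 of 14 alternatives. THBS2, a matricellular protein that binds MMP2 for clearance, fell by 0.83 (standard error 0.13, limma adjusted p = 0.00678). SERPINE2, an inhibitor of serine proteinases such as urokinase, fell on 1 probe by 0.86 (standard error 0.19, limma adjusted p = 0.0186), a call lost without scramble array 2 (-0.80) or DJ-1 siRNA array 1 (-0.86). Its other tested probe overlapped between the groups and was not called, at -0.48 (limma adjusted p = 0.158), or -0.19 at the smallest, without background correction. Without DJ-1 siRNA array 2 it was called, at -0.73 (adjusted p = 0.0295).

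ADAM and ADAMTS proteinases shed surface proteins or cut proteoglycans. They had 15 tested probes, of which 1 rose and 2 fell (median -0.12, 20% called against 30.1% of all tested probes). ADAMTS12 fell by 1.53 (standard error 0.14, limma adjusted p = 0.00277), and ADAM12, meltrin alpha, known from myoblast fusion, had a log2 fold change of -1.26 (standard error 0.32, limma adjusted p = 0.0281). Without background correction ADAM12 was -0.48, with no filter on dim probes its call was lost (adjusted p = 0.0603), and with an array left out it was kept only without scramble array 1 (-1.64). ADAM9 rose by 0.45 (standard error 0.12, limma adjusted p = 0.0354) and, with an array left out, likewise kept its call only without scramble array 1 (0.55). The ADAM9 call was also lost with no filter (adjusted p = 0.0791) and with the replicate block (adjusted p = 0.0633).

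Of the matrix proteins that these enzymes cut, 45 probes were tested, 4 rose and 10 fell (median -0.09). DCN, decorin, a collagen-binding proteoglycan, was lower on both tested probes, with log2 fold changes of -1.79 (standard error 0.27, limma adjusted p = 0.00580) and -1.34 (standard error 0.20, limma adjusted p = 0.00598). NID1, nidogen, which links laminin and collagen in basement membrane, was higher on both of its named probes, by 1.44 (standard error 0.25, limma adjusted p = 0.00902) and 0.84 (standard error 0.12, limma adjusted p = 0.00513), the former falling to 0.79 without background correction. FN1, fibronectin, rose by 0.86 (standard error 0.18, limma adjusted p = 0.0148) on ILMN_2646618, but its other 3 tested probes were not called, at 0.22, 0.16 and 0.19 (limma adjusted p = 0.168, 0.295 and 0.445). Without background correction but with the 75th percentile shift 2 of these 3 were called, at 0.27 and 0.26 (adjusted p = 0.0356 and 0.0482), and the dimmest fell to 0.016 without scramble array 1. The 0.16, of FN1 ILMN_2595714, fell to 0.084 with an array left out and was 0.32 at the largest over the alternatives. HSPG2, perlecan, disagreed between probes, with -1.58 on ILMN_2578369 (limma adjusted p = 0.00285; -0.76 without background correction) and 0.38 on ILMN_2685329 (limma adjusted p = 0.0368), the latter named after its values were seen and, with an array left out, called only without scramble array 1 (0.45). Its call was lost with no filter on dim probes (adjusted p = 0.0839) and with the replicate block (adjusted p = 0.0825), and HSPG2 ILMN_2520249 was not called, at 0.33 (limma adjusted p = 0.0723), though it was in 6 of 14 alternatives. The called share, 31.1%, was close to the 30.1% of all tested probes.

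Transcription factors known from metalloproteinase and TIMP1 promoters had 16 tested probes, of which 3 rose and 1 fell (median -0.05). This is 25% called, against 30.1% of all tested probes. The number called was 8 (4 higher and 4 lower) without background correction under quantile normalisation, and 1 without DJ-1 siRNA array 1. RUNX1 rose by 0.65 (standard error 0.12, limma adjusted p = 0.0110; 0.39 at the smallest, without background correction), ETS1 by 0.52 (standard error 0.12, limma adjusted p = 0.0230) and STAT3 by 0.46 (standard error 0.13, limma adjusted p = 0.0354). The 2 other tested STAT3 probes were not called, at 0.45 (limma adjusted p = 0.0622, called in 7 of 14 alternatives) and 0.19 (limma adjusted p = 0.604), the latter turning to -0.086 without scramble array 2. With no filter on dim probes the calls of ETS1 (adjusted p = 0.0516) and STAT3 (adjusted p = 0.0789) were lost, and that of STAT3 also with the replicate block (adjusted p = 0.0694). FOSL2, a FOS family member that binds the AP-1 motif with JUN proteins, fell by 0.49 (standard error 0.11, limma adjusted p = 0.0167). With an array left out, STAT3 kept its call only without DJ-1 siRNA array 2 (0.56), ETS1 without that array (0.55) or scramble array 1 (0.61), and FOSL2 lost its call only without DJ-1 siRNA array 1 (-0.45).

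Cytokines that induce metalloproteinases and their receptors had 20 tested probes, of which 4 rose and 5 fell (median 0.09). This is 45% called, against 30.1% of all tested probes. Without DJ-1 siRNA array 1, and likewise without DJ-1 siRNA array 3, only 2 of 18 tested probes were called (1 higher and 1 lower). IL6 fell by 0.86 (standard error 0.18, limma adjusted p = 0.0152), but its log2 fold change was -0.41 at the smallest, without background correction. OSMR, a receptor for oncostatin M, which induces TIMP1 in many cells, gave opposite directions. OSMR was detected on no scramble array on ILMN_1247795 and ILMN_2583052. Both probes count among the 4 rises and passed the detection filter only through the knockdown arrays. On them OSMR was at least 7.83-fold and at least 1.95-fold higher after knockdown (limma adjusted p = 0.00224 and 0.00953). These bounds rest on the background correction, without which the smallest values in log2 terms were 1.78 and 0.61. On the brighter ILMN_2623280 OSMR fell by 0.64 (standard error 0.16, limma adjusted p = 0.0255), a call lost with no filter on dim probes (adjusted p = 0.0558) and without scramble array 2 (-0.57), DJ-1 siRNA array 1 (-0.63) or DJ-1 siRNA array 3 (-0.51). TGFBR2, a receptor for TGF-beta, likewise gave 1.02 on ILMN_1242086 (limma adjusted p = 0.00494; 0.48 without background correction) and -0.57 on ILMN_2760979 (limma adjusted p = 0.0142), the latter losing its call without DJ-1 siRNA array 1 (-0.55) or 3 (-0.50).

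Genes listed as cell type markers moved as well, and their part in the values of the members was not tested. The lists do not show that each cell type was present in the C2C12 cultures. Of 29 tested probes of myotube genes 16 fell and 2 rose (median -0.56, 62.1% called against 30.1% of all tested probes). The summed signal of the list was 296724, 286110 and 286295 in the scramble group and 227674, 241024 and 208644 in the knockdown group, with ACTA1 the most abundant. MYH1, a fast myosin heavy chain detected on all 6 arrays by 2 probes, had log2 fold changes of -2.19 and -1.93 (limma adjusted p = 0.00284 and 0.00304). The list did not move as one, since ACTA1, CKM, MYH3 and MYOG were not called. TTN, titin, rose on ILMN_1228221 by 1.77 (limma adjusted p = 0.00277) and on ILMN_2744368 by 0.76 (limma adjusted p = 0.0309). The latter was detected on only 1 scramble array and would not have passed the detection filter on the scramble arrays alone. That rise was 0.24 at the smallest and was called in 7 of 13 alternatives. TTN fell on 3 of its other probes, and each of these falls lost its call without DJ-1 siRNA array 3. Of 3 tested fibroblast marker probes 2 fell, PDGFRA and PDGFRB (66.7% called, against 30.1% of all tested probes). The summed signal was 1744, 1848 and 1796 in the scramble group and 1149, 1569 and 1083 in the knockdown group. PDGFRA had a log2 fold change of -0.58 (limma adjusted p = 0.0493) and kept its call in 6 of 14 alternatives, with an array left out only without DJ-1 siRNA array 2 (-0.76). DPT overlapped between the groups and was not called, at 0.44 (limma adjusted p = 0.363), or 0.070 without DJ-1 siRNA array 2 and 0.74 without DJ-1 siRNA array 3. The most abundant was PDGFRB, which fell by 0.82 (standard error 0.13, limma adjusted p = 0.00714), and TCF21 and THY1 were detected on no array. The undifferentiated myoblast list summed to 2409, 2684 and 2508 against 1646, 1557 and 1898. Of its 5 tested probes 3 were lower (60% called, against 30.1% of all tested probes). MYOD1 was its most abundant gene and fell by 0.90 (standard error 0.10, limma adjusted p = 0.00317), while MYF5 passed detection on 1 array of each group and PAX7 on none. MMP14 and these myotube, fibroblast and myoblast sums were each lower on every knockdown array than on any scramble array. Over all tested probes 48.5% had no overlap between the groups, in either direction, and a link between MMP14 and these sums was not tested.

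Of 10 tested probes of proliferation genes 1 fell and 0 rose by limma (3 were higher at an unadjusted p under 0.05). This is 10% called, against 30.1% of all tested probes. The sums were 7726, 8365 and 7562 in the scramble group and 7465, 8440 and 7626 in the knockdown group, which overlap. Leukocyte genes, which would mark a common source of MMP9, were represented by CD68 alone, uncalled on its 1 tested probe, while PTPRC and ITGAM were detected on no array and ADGRE1 on 1 knockdown array. No endothelial marker was tested, and PECAM1 and CDH5 each passed detection on 1 array. Of the adipocyte markers PPARG rose by 1.06 (standard error 0.27, limma adjusted p = 0.0264; 0.60 at the smallest, without background correction), a call lost with no filter on dim probes (adjusted p = 0.0567) and kept with an array left out only without scramble array 1 (1.30) or 2 (0.80), while ADIPOQ was detected on no array and FABP4 on 1 scramble array.

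Bead noise also differed between the groups. Across all probes, the median bead error was 11.3, 8.30 and 8.66 in the scramble group and 7.17, 6.36 and 5.88 in the knockdown group, and probes passing detection numbered 16985, 17399 and 18179 against 18704, 18857 and 18408. For MMP3 ILMN_2753809 the error over beads was 10.1%, 6.65% and 10.3% of the signal in the scramble group and 4.99%, 3.39% and 4.86% in the knockdown group. The part of this difference in the calls of dim probes was not tested.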

How the data were processed

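The authors scanned the arrays and deposited, per probe and array, the mean signal intensity without normalisation or background subtraction. The deposited file also gives detection p-values, and the standard error over beads and bead numbers, the last 2 of which entered no test. Groups came from the sample labels.

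In R 4.3.3 with limma 3.58.1, background was corrected by normexp with negative controls inferred from detection p (offset 16), followed by quantile normalisation and log2. The 17890 probes that passed detection (p under 0.05) on 3 or more arrays entered lmFit and eBayes, with Benjamini-Hochberg adjustment over all of these. Each probe was kept separately. The number of arrays limits the precision. The fit was tested on simulated data.

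The file's gene names were kept, and 32345 rows also matched a RefSeq gene by number or accession. The array file names no build. Bounds ("at least") compare the detected group's mean with an average over undetected arrays, each entered at its lowest detected signal or at the probe's own, whichever was higher.

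The members and lists were chosen with earlier results of these data known. Of each list, the 3 largest rises and the 3 largest falls among called probes could be named where at least 1 group detected the probe throughout, and any tested cell marker. The names A2M, ADAM19, ADAMTS5, FOSL1 and TMEM8C were not matched, though the gene of TMEM8C (Mymk) was tested in the myotube list as 1110002H13RIK. The 14 alternatives were no background correction, a 75th percentile shift after it or in its absence, offset 50, testing of all probes, testing only of probes with detection p under 0.01 throughout, a prior variance trend, the replicate number as a block, and each array left out.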

Additional observations from a re-analysis of the deposited data

How the results depend on the processing

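PARK7 kept its direction and its call in all 14 alternatives (-1.24 to -1.003), and MMP14 did too (-0.71 to -0.53). The number of all probes called was 5387, and 3519 with no filter on dim probes, where many more probes enter the adjustment. Leaving out 1 array gave 2444 (without DJ-1 siRNA array 1) to 5302 probes (without scramble array 1), and 2612 without DJ-1 siRNA array 3, with fewer arrays in each. The 2 called member probes became 1 without background correction but with the 75th percentile shift, with no filter and with the stricter filter, which leaves MMP3 untested. They stayed 2 without background correction but with quantile normalisation, where MMP3 was lost and TIMP1 ILMN_3103896 was added. They became 5 with a prior variance trend, where MMP3 was lost and the TIMP1, TIMP2 and brighter TIMP3 probes were added. In that fit 6470 of all 17890 tested probes were called. Leaving out 1 array gave 1 to 2 called member probes. The cause of these moves was not tested.

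With the replicate number as a replicate block, 4350 probes were called in all, PARK7 stayed at -1.16, and 1 member probe was called (MMP14). Same-numbered arrays deviated from their group means with correlations of 0.054, 0.047 and 0.020, and differently numbered arrays with -0.047 to -0.0037. All were weak, and they do not settle whether the numbers pair the arrays.

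With each array left out, MMP9 (-0.10) ranged from -0.20 to 0.043, positive without DJ-1 siRNA array 1, and MMP28 ILMN_3159029 (-0.11) from -0.25 to 0.043, positive without scramble array 1, neither being called in any alternative. STAT3 ILMN_3096144 (0.19) ranged from -0.086 without scramble array 2 to 0.42 without scramble array 3. ACTA1 was -0.0050, from -0.050 without scramble array 1 to 0.24 where background-corrected arrays were shifted to a common 75th percentile (0.18 for uncorrected arrays, 0.066 without DJ-1 siRNA array 3), and TTN ILMN_1220329 (0.099) was -0.054 without DJ-1 siRNA array 3 and 0.18 without DJ-1 siRNA array 1, with none of these 3 probes called. No other log2 fold change that the text prints changed sign where it was fitted. Signal over background limits MMP3, MMP9, MMP10, MMP13 and TIMP4, whose probes lay near the level of undetected ones. Without background correction, under either scaling, log2 fold changes were over 1.5 times smaller for MMP1A, MMP3, MMP9, MMP17, MMP23, ADAM12, RUNX1, IL6, PPARG, DPT, FN1 ILMN_1260125, STAT3 ILMN_3096144, SERPINE2 ILMN_2883164, both MMP28, BSG and named RECK probes, NID1 ILMN_2560756, HSPG2 ILMN_2578369, TGFBR2 ILMN_1242086 and 2 OSMR probes (ILMN_1247795 and ILMN_2583052). TTN ILMN_2744368 (0.76) was also over 1.5 times smaller, at 0.24, in an alternative that kept all arrays.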
